A study of Mus musculus with 4 samples.

Results

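The genes described here encode the machinery of mitosis: the kinases and cyclins of mitotic entry, the spindle checkpoint, the kinetochore, the spindle motors, the cytokinesis factors and the condensin complex. They were taken from a list of 44 genes by symbol, and each was represented by the probe set that names it alone and that had the highest mean log2 level over the 4 arrays. Of the 44 genes, 43 were measured in this way, out of 18193 named genes in all, and the cyclin gene Ccnb1 was not analysed here. The mean over the 4 arrays exceeded the all-gene median for each of the 43. The arrays measured total RNA of K7M2, a mouse osteosarcoma cell line known for metastasising to the lung, grown in medium with serum. The cells over-expressed ezrinT567A-GFP (3 arrays, replicates 1 to 3) or GFP alone (1 array). Ezrin tethers membrane proteins to cortical actin, and this form has an alanine in place of the C-terminal threonine whose phosphorylation keeps ezrin open and active. Both groups share the cell line, its own ezrin and the GFP moiety. The labels give neither the promoter of the transgenes, nor whether the cells were clones or pools, nor whether the replicates were separate cultures, so the p-values reflect array-to-array spread, which may be technical.

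Cells enter mitosis when cyclin B and Cdk1 become active, and Plk1 and the Aurora kinases then drive spindle assembly. Kinetochores attach chromosomes to microtubules, and the checkpoint holds back the anaphase-promoting complex until every chromosome is attached. Transcripts of most of these genes are made mainly late in the cell cycle, from promoters with CCAAT boxes, bound by NF-Y, and a cell cycle homology region, bound by the MuvB complex with B-Myb or FoxM1. Their summed level in a culture is therefore often read as a measure of proliferation. In bulk RNA, fewer cells in mitosis and less RNA of these genes per cell cannot be told apart.

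Mitosis genes were lower in ezrinT567A-GFP cells than in GFP cells almost throughout the list, each by a modest amount. Of the 43 measured genes 42 had a lower mean, as had 43.8% of all genes and 45.4% of the genes above the median level. The median difference was -0.41 on the log2 scale (ezrinT567A-GFP mean less the GFP value, as for all differences given here), where the median over all genes was 0.03. The array medians were -0.32, -0.51 and -0.39 in replicates 1, 2 and 3, which is -0.41 ± 0.10 (SD, n = 3). All 3 were taken against the same GFP array, so this SD leaves out the variation of GFP. On all 3 ezrinT567A-GFP arrays 38 of the 43 lay below GFP. Among the 9096 genes above the median level, 29.6% did so. In 26 of the 43 the gap to GFP was wider than the whole range of the 3 ezrinT567A-GFP arrays, which held for 13% of the 9096 genes. The differences ran from -1.06 for Nuf2 to 0.06 for Pttg1, and Nuf2 was the 1 member at least 2-fold lower, as were 0.912% of the 9096 genes.

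No member was called singly. After adjustment in limma, 0 of 43 members had an adjusted p under 0.05, as had 0% of all 18193 genes, and the lowest adjusted p among the members was 0.210. At an unadjusted p under 0.05 limma gave 23 members lower and 0 higher, where 6.5% of all genes were lower, and of the 9096 genes above the median level 8.77% were lower and 11.3% higher. An exact permutation of the 4 arrays cannot go below p = 0.25, and the GFP array, having no replicate, was assumed to vary like the others.

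**Figure D1:**
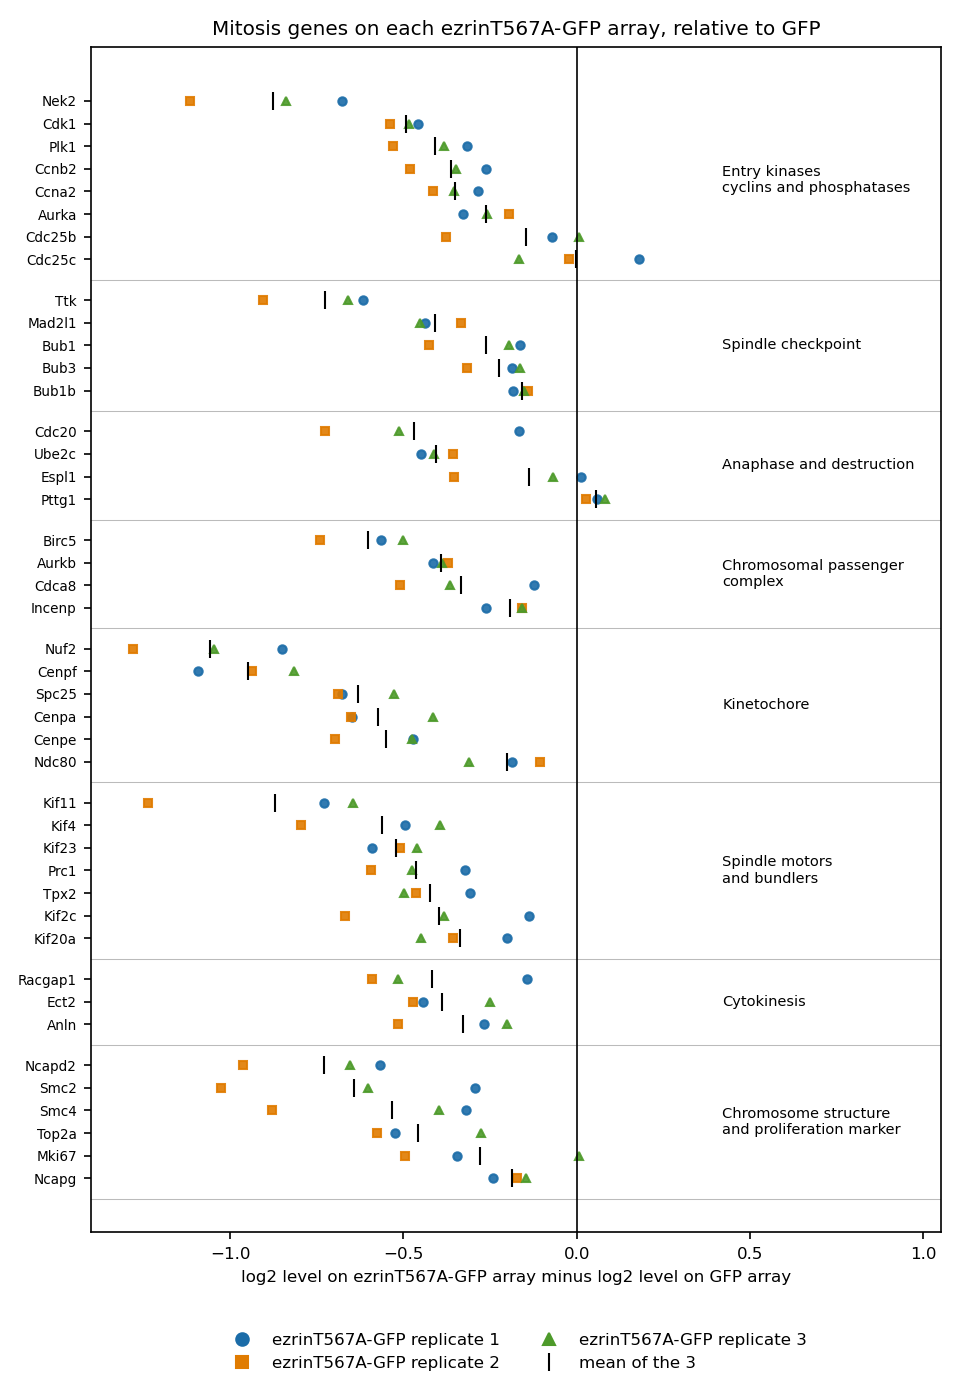
Log2 level on each ezrinT567A-GFP array minus the log2 level on the GFP array (horizontal axis) for the 43 measured mitosis genes (rows, grouped by role), with a symbol for each replicate and a bar at the mean of the 3. Nearly all points lie left of 0, and Pttg1 is the gene with all 3 points to the right.

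The promoters of these genes are shown because genes of mitosis are known to share control elements. Whether these elements bear on the differences between the arrays was not tested. RefSeq promoter windows on build GRCm38.p6, running from 250 bases before to 50 after the start site, were found for 37 of the 44 genes. A CCAAT box, spelled CCAAT on either strand, was present in a window of 30 of the 37 genes (81.1%), and in 41.1% of all 27025 genes of the promoter table. The core of the cell cycle homology region, spelled TTTGAA on either strand, was present in 28 of the 37 (75.7%), and in 20.2% of all genes. Windows with both were found for 25 of the 37 (67.6%), against 7.97% of all genes, and counted over windows, 6.95% of all 32851 held both. The 2 patterns can share bases at their ends. A match describes the letters of a window and does not show that a factor binds there. Below are the windows of the 3 members with the smallest p that held both patterns, read 5′ to 3′ on the gene's strand with every match in capitals. They are those of Cenpf (chr1:189688037-189688336, minus strand), Cdk1 (chr10:69352863-69353162, minus strand) and Spc25 (chr2:69206164-69206463, minus strand).
Cenpf: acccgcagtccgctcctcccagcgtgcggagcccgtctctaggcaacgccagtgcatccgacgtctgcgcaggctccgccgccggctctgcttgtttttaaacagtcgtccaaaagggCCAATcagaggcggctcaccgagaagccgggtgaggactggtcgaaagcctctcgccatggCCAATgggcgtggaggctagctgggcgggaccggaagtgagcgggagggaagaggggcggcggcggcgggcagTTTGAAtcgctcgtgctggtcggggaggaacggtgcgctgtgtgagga
Cdk1: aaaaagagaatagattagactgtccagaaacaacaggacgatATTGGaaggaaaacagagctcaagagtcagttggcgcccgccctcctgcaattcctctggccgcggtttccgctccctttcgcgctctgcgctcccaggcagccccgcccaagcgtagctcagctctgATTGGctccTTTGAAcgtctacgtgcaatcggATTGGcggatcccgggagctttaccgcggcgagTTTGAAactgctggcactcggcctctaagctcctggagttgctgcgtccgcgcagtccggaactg
Spc25: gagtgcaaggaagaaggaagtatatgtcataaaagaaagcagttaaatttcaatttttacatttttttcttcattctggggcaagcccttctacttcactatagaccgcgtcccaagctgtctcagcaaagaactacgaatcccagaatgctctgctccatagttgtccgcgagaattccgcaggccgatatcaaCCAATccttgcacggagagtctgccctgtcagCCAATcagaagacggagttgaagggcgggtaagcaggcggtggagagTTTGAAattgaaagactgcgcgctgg

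Counted from the start site, the CCAAT boxes of Cenpf began at -132 and -71 and its TTTGAA at base 3 of the transcript. Cdk1 held TTTGAA at -71 and -15, and Spc25 held it at base 25 of the transcript. The next lines give 26 bases round the TTTGAA nearest the start site of other members named in the results, turned so that the core reads TTTGAA in capitals, to show how the bases beside the core vary.
Kif23: gattggcctgTTTGAAatgcgccggg
Ttk: cggaaacacgTTTGAAatttccccgc
Ect2: actggattttTTTGAAtcggaggcgg
Anln: ccgttcaaaaTTTGAAtttcagcgcc
Cdc20: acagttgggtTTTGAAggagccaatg
Top2a: cctagtttcaTTTGAAcctttatcta
Ube2c: gccgcccgcgTTTGAAttgcaaccct
Mki67: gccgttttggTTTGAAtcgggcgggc
Ncapd2: gccgttgaggTTTGAAcagggaattg

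The lowest and the highest member lacked both patterns, whereas Cenpf, the next lowest, held both. The 25 measured genes with both patterns had a median difference of -0.46 (range -0.95 to -0.14), 4 genes with CCAAT alone -0.41, 3 with TTTGAA alone -0.33, and 4 with neither pattern -0.51. The 4 with neither included Nuf2, the lowest of all members, and Pttg1, the highest, besides Birc5 and Mad2l1.

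The markers most often used to count dividing cells gave an uneven picture. Mki67, which encodes the Ki-67 protein that coats mitotic chromosomes, had levels of 9.22, 9.07 and 9.57 on ezrinT567A-GFP replicates 1, 2 and 3, against 9.56 on GFP. Replicates 1 and 2 were below GFP and replicate 3 was level with it, so the groups overlapped (difference -0.28, SE 0.22, limma adjusted p = 0.653). Top2a, the topoisomerase that untangles sister chromatids, had 10.26, 10.21 and 10.51 on the ezrinT567A-GFP arrays, against 10.79 on GFP. All 3 arrays lay below GFP (difference -0.46, SE 0.15, adjusted p = 0.326), and its 2 further probe sets gave differences between -0.51 and -0.39.

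Among the genes of mitotic entry, 8 of 9 were measured and all had a lower mean, with a median of -0.36. Cdk1, the kinase that drives entry, was at 10.66, 10.58 and 10.64 on the ezrinT567A-GFP arrays, against 11.12 on GFP. The 3 arrays were close together and well below GFP (1.41-fold lower, difference -0.49, SE 0.08, adjusted p = 0.218). Nek2, a kinase that splits the centrosomes, had 8.45, 8.01 and 8.29 in ezrinT567A-GFP, against 9.13 in GFP (1.84-fold lower, difference -0.88, SE 0.20, adjusted p = 0.256). The cyclins Ccna2 (-0.35) and Ccnb2 (-0.36), which activate Cdk1, and the kinases Plk1 (-0.41) and Aurka (-0.26), which mature centrosomes and the spindle, also lay below GFP on all 3 arrays. The phosphatases that switch Cdk1 on did not: Cdc25b had 7.06, 6.76 and 7.14 in ezrinT567A-GFP, against 7.13 in GFP, and Cdc25c had 6.79, 6.59 and 6.44, against 6.61. Both overlapped GFP, with 95% intervals of the difference from -0.68 to 0.38 for Cdc25b and from -0.49 to 0.48 for Cdc25c.

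All 5 spindle checkpoint genes were below GFP on all 3 arrays, with a median of -0.26. Ttk, the kinase Mps1 that starts checkpoint signalling at unattached kinetochores, had 7.75, 7.47 and 7.71 in ezrinT567A-GFP, against 8.37 in GFP (1.66-fold lower, difference -0.73, SE 0.16, adjusted p = 0.252). Mad2l1, the checkpoint protein that holds Cdc20, had 9.56, 9.66 and 9.55 in ezrinT567A-GFP, against 9.996 in GFP (difference -0.41, SE 0.10, adjusted p = 0.276). On the probe sets chosen the remaining checkpoint genes differed less: Bub1 by -0.26, Bub3 by -0.22 and Bub1b, which encodes BubR1, by -0.16. Their 95% intervals all reached past 0. A further, dim Bub1 probe set gave -0.66. Further probe sets of Bub1b gave -0.09 and -0.32, and those of Bub3 spanned -0.27 to 0.19.

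The 4 genes of anaphase and of protein destruction divided. Ube2c, the ubiquitin-conjugating enzyme of the anaphase-promoting complex, had 10.51, 10.60 and 10.55 in ezrinT567A-GFP, against 10.96 in GFP (difference -0.41, SE 0.09, adjusted p = 0.243). Cdc20, its activator, had 10.51, 9.95 and 10.16 in ezrinT567A-GFP, against 10.68 in GFP. All 3 lay below GFP, but they were spread more widely than the gap (difference -0.47, SE 0.24, adjusted p = 0.468). Espl1, the separase that cuts cohesin, had 8.21, 7.84 and 8.13, against 8.20, and overlapped GFP. Pttg1, the securin that keeps separase inactive, was the 1 member with a higher mean, at 11.36, 11.33 and 11.38 in ezrinT567A-GFP, against 11.30 in GFP. Its difference of 0.06 (SE 0.07, adjusted p = 0.803) had a 95% interval from -0.15 to 0.26, which leaves out the median difference of the members, and its further probe sets gave -0.09 and 0.01.

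The chromosomal passenger complex, which corrects faulty attachments and later guides cytokinesis, was below GFP on all 3 arrays in all 4 of its genes, with a median of -0.36. Birc5, the survivin subunit, had 9.55, 9.38 and 9.62 in ezrinT567A-GFP, against 10.12 in GFP (1.52-fold lower, difference -0.60, SE 0.13, adjusted p = 0.247). Aurkb, its kinase, had 8.27, 8.32 and 8.30 in ezrinT567A-GFP, against 8.69 in GFP (difference -0.39, SE 0.10, adjusted p = 0.280). A further Aurkb probe set gave -0.76. The borealin gene Cdca8 (-0.33) and the scaffold Incenp (-0.19) differed less on the probe set chosen, while further probe sets of Cdca8 reached -0.57 and those of Incenp spanned -0.60 to 0.43.

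All 6 kinetochore genes lay below GFP on all 3 arrays, with a median of -0.60. That median depended on the probe sets: it was -0.52 when a gene's probe sets were averaged, where the passenger complex had -0.53. Without the _s_at, _x_at and _a_at kinds it was -0.31, where the passenger complex had -0.52. Those medians cover only part of each group, because Nuf2, Aurkb and Birc5 were not measured without these kinds. Dim probe sets then stood for Cenpa (0.01) and Spc25 (-0.31). Nuf2 and Spc25 are subunits of the Ndc80 complex that grips microtubules. Nuf2 had 8.19, 7.76 and 7.997 in ezrinT567A-GFP, against 9.04 in GFP (2.08-fold lower, difference -1.06, SE 0.20, adjusted p = 0.231). Cenpf, a large protein of the outer kinetochore, had 7.60, 7.76 and 7.88 in ezrinT567A-GFP, against 8.69 in GFP (1.93-fold lower, difference -0.95, SE 0.15, adjusted p = 0.210). For both genes every ezrinT567A-GFP array stood clear of GFP. Further Cenpf probe sets gave -0.72 and, on a dim one, -0.03. Spc25 differed by -0.63, the centromeric histone Cenpa by -0.57 and the kinetochore kinesin Cenpe by -0.55. Ndc80 itself differed by -0.20, and its 95% interval ran from -0.57 to 0.17. Members of the Ndc80 complex thus had unequal differences, although the interval of Ndc80 overlapped that of Nuf2 (-1.60 to -0.52), and the difference between them was not tested.

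All 7 spindle motors and bundlers lay below GFP on all 3 arrays, with a median of -0.46. Kif23, the kinesin of the central spindle, had 7.87, 7.95 and 7.997 in ezrinT567A-GFP, against 8.46 in GFP (1.44-fold lower, difference -0.52, SE 0.12, adjusted p = 0.251). Tpx2, which activates Aurora A on the spindle, had 8.69, 8.54 and 8.50 in ezrinT567A-GFP, against 9.002 in GFP (difference -0.42, SE 0.13, adjusted p = 0.302), and its dimmer probe sets reached 0.13. Kif11, the motor that pushes the poles apart, differed by -0.87 with an uneven spread: 7.83, 7.32 and 7.91, against 8.56. Kif4, a chromosome-arm kinesin, differed by -0.56, the bundler Prc1 by -0.46, the microtubule depolymerase Kif2c by -0.40 and the midzone kinesin Kif20a by -0.34.

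Cytokinesis and chromosome structure completed the list. Ect2, the exchange factor that activates RhoA at the cleavage furrow, had 8.04, 8.01 and 8.23 in ezrinT567A-GFP, against 8.48 in GFP (difference -0.39, SE 0.14, adjusted p = 0.349). Anln, the furrow scaffold anillin, had 10.60, 10.35 and 10.66, against 10.86 (difference -0.33, SE 0.15, adjusted p = 0.436), and Racgap1, the partner of Kif23 and Ect2, differed by -0.42. These 3 genes were below GFP on all 3 arrays. The condensin subunit Ncapd2 had 7.84, 7.44 and 7.75 in ezrinT567A-GFP, against 8.41 in GFP (1.66-fold lower, difference -0.73, SE 0.20, adjusted p = 0.283). The condensin ATPases Smc2 (-0.64) and Smc4 (-0.53) had wide spreads, with SDs of 0.37 and 0.30 over the 3 arrays, and the subunit Ncapg differed by -0.19.

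**Figure D2:**
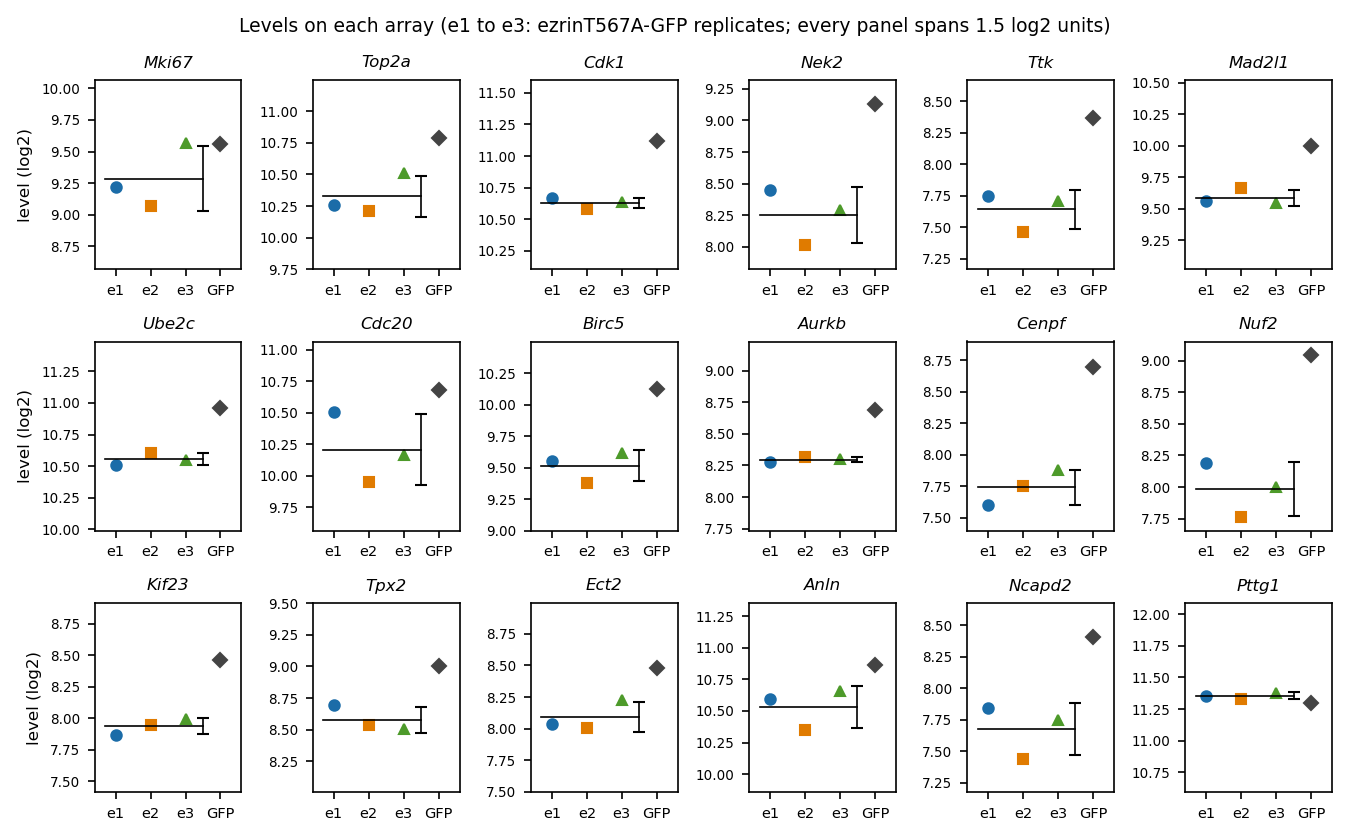
Log2 levels on ezrinT567A-GFP replicates 1 to 3 (e1 to e3) and on the GFP array for 18 mitosis genes, with a line at the mean of the 3 ezrinT567A-GFP arrays and an error bar of 1 SD (n = 3). Each vertical axis spans 1.5 log2 units at its own position, so distances but not heights compare between panels, and the GFP symbol is the highest in every panel except those of Mki67 and Pttg1.

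Probe sets other than the chosen ones pointed the same way where they were bright. Of 34 further member probe sets above the median level of all named probe sets, 31 were lower and 29 lay below GFP on all 3 arrays, with a median of -0.44, while 30.6% of all bright probe sets lay below GFP on all 3. The 21 further probe sets at or under that level had a median of -0.04. Probe sets differed in sign for 8 of the 29 members with more than 1: Nek2 (-0.88 to 0.19), Bub3 (-0.27 to 0.19), Pttg1 (-0.09 to 0.06), Incenp (-0.60 to 0.43), Cenpa (-0.57 to 0.01), Kif2c (-0.40 to 0.22), Tpx2 (-0.42 to 0.13) and Smc2 (-0.71 to 0.04). All probe sets of the arrays come from the same RNA, so these are repeat readings and not further samples.

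The ezrinT567A-GFP arrays were not alike in this list. Replicate 2 was the lowest of the 4 arrays for 29 of the 43 members (67.4%), against 29.7% of the genes above the median level. It was also the lowest for 66.7% of the replication genes and 46.9% of the other mitotic genes described below. Replicates 1 and 3 were the lowest for 8 and 5 members, and for 1843 and 1189 of the 9096 genes above the median level. Replicate 2 also had the highest spike-in controls, which averaged 10.1, 11.1 and 10.4 in replicates 1, 2 and 3, against 9.32 on GFP, and the highest 18S rRNA signal, at 11.3, where the other arrays lay between 7.65 and 9.09. Without replicate 2 the median of the members was -0.35, and 38 lay below GFP on both remaining arrays. That is a looser criterion than all 3 arrays, and the share of all genes that meets it is not given here. In a fit with the mean spike-in signal as covariate, which leaves 1 residual degree of freedom, the median was -0.22, 30 of 43 members were lower and 13 were not, and the medians of cytokinesis (0.03) and of anaphase and destruction (0.13) stood above 0. The kinetochore median was -0.52 in that fit. The GFP spike-in mean lay below those of the ezrinT567A-GFP arrays, so that fit extrapolates to it. Beyond that fit, the part of these control signals in the members' differences was not tested.

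The 3 lowest members, Nuf2, Cenpf and Nek2, all lie on chromosome 1, and they are the 3 members on that chromosome. Genes of chromosome 1 as a whole were lower: the 510 genes above the median level had a median of -0.34, the lowest of the 20 chromosomes examined, with -0.31, -0.37 and -0.29 in replicates 1, 2 and 3. Of these 510 genes 72.7% lay below GFP on all 3 arrays. The 3 members lay below that median. Relative to the chromosome's median computed without them (-0.33), Nuf2 was at -0.73, Cenpf at -0.62 and Nek2 at -0.55. Of 6 other mitotic genes on this chromosome 3 were above the median level: the spindle organiser Aspm (-0.99), the centromere gene Cenpl (-0.99) and the shugoshin Sgo2a (-0.73). The other 3, Lin9 (-1.29), Nsl1 (-0.02) and Kif14 (-0.05), were represented by dim probe sets. The 40 members elsewhere had a median of -0.40, and the kinetochore genes elsewhere had -0.56. When each member was set against the median of the bright genes of its own chromosome that are not members, all 43, Pttg1 included, lay below it, with a median of -0.48.

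**Figure D3:**
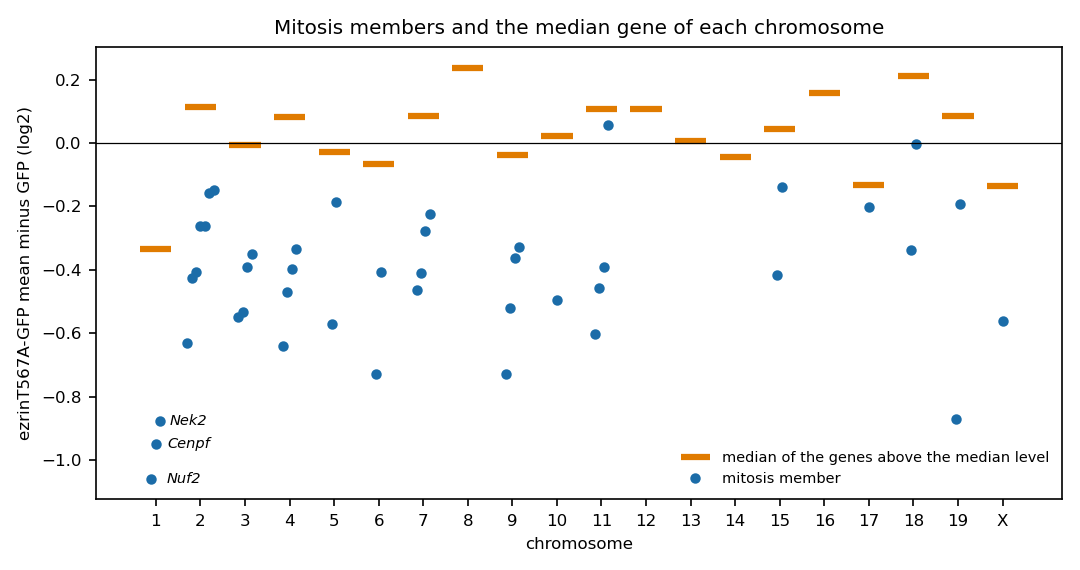
Difference between the ezrinT567A-GFP mean and GFP on the log2 scale (vertical axis) for each mitosis gene (points), by chromosome, with a bar at the median of the genes above the median level on that chromosome. The chromosome 1 bar is the lowest, at -0.34, the 3 members there lie below it, and no member lies above the bar of its own chromosome.

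A wider list of 115 mitotic genes that are not members gave a smaller median difference, -0.23. Of its 113 measured genes 85 had a lower and 28 a higher mean, where 45.4% of the genes above the median level were lower. On all 3 arrays 72 (63.7%) lay below GFP, where 29.6% of the genes above the median level did so. After limma's adjustment over all genes 0 were called, while 31 lower and 5 higher genes had an unadjusted p under 0.05. At that limma p, 8.77% of the genes above the median level were lower and 11.3% higher. All 9 genes of the checkpoint and shugoshin group lay below GFP on all 3 arrays (median -0.36), among them the centromeric cohesin protectors Sgo1 (-0.83) and Sgo2a. Of 25 kinetochore and centromere genes 20 were lower (median -0.31), and the smallest p belonged to Spc24 (-0.84), a partner of Spc25, and Cenpq (-0.74), of the inner kinetochore.

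The list for the anaphase-promoting complex was divided. Besides subunits it held Fzr1, Ube2s and Fbxo5, which act with or on the complex. Of the 15 genes 7 had lower and 8 had higher means, and the median was 0.02, where 45.4% of the genes above the median level were lower. The subunits with the smallest p were higher: Anapc2, the cullin, by 0.42 (SE 0.11, limma adjusted p = 0.282) and Anapc11, the RING subunit, by 0.35 (SE 0.10, adjusted p = 0.286). Among condensin and cohesin genes 11 of 14 were lower (median -0.37), with differences of 0.45 for the cohesin ring gene Smc1a and -0.67 for its partner Stag2. How these groups differ from each other was not tested. Among the other motors and spindle genes 17 of 24 were lower (median -0.12), with the hyaluronan receptor and spindle protein Hmmr at -0.44.

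Regulators of mitotic entry and of the transcription of these genes were lower in 21 of 26 (median -0.31). Of the genes above the median level 45.4% were lower. The MuvB subunit Lin9 had 4.37, 4.32 and 4.49 in ezrinT567A-GFP, against 5.68 in GFP, and its ezrinT567A-GFP levels lay under the median level of all genes (5.04). E2f8, a repressor of the E2F family, had 7.72, 7.73 and 7.94, against 8.89 (difference -1.09, SE 0.14, limma adjusted p = 0.187). Replication genes, the other wave of the cell cycle, had lower means for 41 of 48 and a median difference of -0.27. Of the genes above the median level 29.6% lay below GFP on all 3 arrays, and of these 48 genes 31 (64.6%) did. The thymidylate synthase gene Tyms (-1.10) and the checkpoint kinase gene Chek1 (-0.74) had the smallest p there, although Tyms was dim and its further probe sets reached 0.10. Whether the mitosis members differed by more than the replication genes was not tested.

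**Figure D4:**
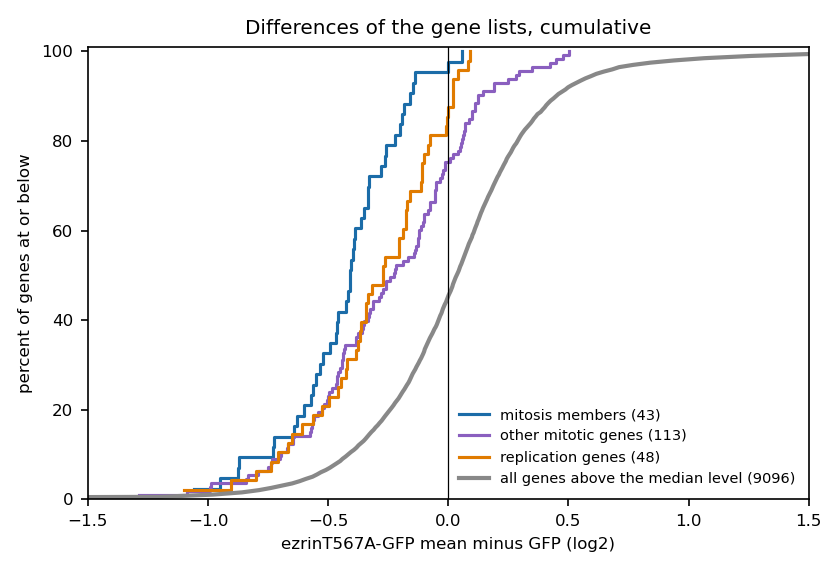
Percent of genes (vertical axis) whose log2 difference, ezrinT567A-GFP less GFP, is at or below the value on the horizontal axis, for the 43 mitosis members, 113 other mitotic genes, 48 replication genes and the 9096 genes above the median level. The curve of the members lies furthest left at its middle, with a median of -0.41, and all 3 lists lie left of the curve of all genes over most of their length.

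Marker genes of cell types were set beside these values. Of 6 measured osteoblast markers, Col1a1 and Col1a2 were bright on all arrays and Sp7 lay near the median level of all genes, whereas Alpl, Ibsp and Dlx5 were dim. Epithelial markers moved with the groups: 9 of 10 were lower in ezrinT567A-GFP, as were 43.8% of all genes. Their levels summed on the linear scale were 127 to 156 on the 3 ezrinT567A-GFP arrays, against 428 on GFP. The basal keratins Krt5, Krt14 and Krt17 made up much of the GFP sum, and 2 of the 10 genes had a mean above the median level. Dimmer probe sets reached 0.08 for Krt14 and -0.20 for Krt17. Whether these transcripts came from the K7M2 cells or from other cells cannot be told apart here. Their bearing on the mitosis values was not tested. The summed leukocyte markers were 3824 to 4807 in ezrinT567A-GFP, against 3887 in GFP, nearly all from Csf1r, with Ptprc at 2.10, 2.13 and 2.12, against 2.22. The 4 endothelial markers were dim on all 4 arrays.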

How the data were processed

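Gene expression was measured on 4 one-colour Affymetrix arrays from total RNA, labelled with biotin per the labels' protocols. The authors deposited log2 values for each probe set, made with RMA per the submitters' processing notes (software and version: not given in the sources used here). That method gives arrays nearly equal distributions, which hides any shift in the RNA content of whole cells. The number of arrays limits the precision.

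Of 45101 probe sets 34958 had 1 gene symbol in the platform annotation, 932 had several and 9211 were not listed. Control probe sets and those without exactly 1 symbol were left out. The brightest probe set stood for each of 18193 genes. In R 4.3.3, limma 3.58.1 compared ezrinT567A-GFP with GFP (lmFit, eBayes with a mean trend), with 2 residual degrees of freedom and a prior worth 2.23. P-values are two-sided and adjusted after Benjamini and Hochberg over all genes. SE is the moderated standard error and intervals are 95% limits from it. The script was tested on simulated data. Promoters and chromosomes came from RefSeq tables of assembly GRCm38.p6. Figures used matplotlib 3.10.9 in Python 3.11.15.

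Members, roles, lists and alternatives were chosen with earlier results of these data known. Levels on every array are given for Mki67, Top2a, the 2 members of each role with the smallest p and every member with a higher mean, and the 2 genes with the smallest p are named from each other list. Members with probe sets of both signs are given with their range, and any member could be named. Array levels of other members, and other genes or probe sets, were chosen after their values were seen. Alternatives were other array scalings, other probe set choices, a filter on dim genes, other variance models, a spike-in covariate and leaving out each replicate.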

Additional observations from a re-analysis of the deposited data

How the results depend on the processing

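Under 11 other settings 0 members passed limma's test over all genes, with 23 members at an unadjusted p under 0.05 in the fit reported above. The median of the members stayed below 0 in all 11, between -0.44 and -0.22. The value of -0.22 came with the spike-in covariate. As GFP had 1 array, the slope of the covariate came from the 3 ezrinT567A-GFP arrays alone. Their spike-in means ran from 10.1 to 11.1, so the adjustment to GFP, at 9.32, is an extrapolation. The cause of the smaller median was not tested further. With that covariate 13 of 43 members were not lower, Pttg1 among them. The highest were Espl1 (0.32) and Cdc25b (0.29), and Anln (0.0282), Cdc20 (0.148) and Mki67 (0.0507) also turned to the higher side. Averaging all probe sets turned Pttg1 to -0.0072. Over all 12 settings, 29 of the 43 members were lower in every setting that measured them. Leaving out each ezrinT567A-GFP replicate gave medians from -0.44 to -0.35 and 38 to 40 members below GFP on the remaining arrays. These counts ask for fewer arrays below GFP than the count over all 3, and the matching shares of all genes are not given. The count of genes called over all 18193 genes, 0 as reported, was 34 after quantile normalization, 30 after subtracting array medians, 6 when probe sets were averaged, 9 under a robust prior and 3 without dim genes, and none of these was a member. Without the _s_at, _x_at and _a_at kinds 33 members were measured, 31 of them lower, and Cenpa was then represented by a dim probe set (0.01). Without the chromosome 1 members the median was -0.40, and against each member's own chromosome it was -0.48, both chosen after seeing the data. No paired analysis was possible because GFP had 1 array, which also could not be left out. No count of members below GFP was made with the covariate.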
